A study of Saccharomyces cerevisiae with 4 samples.

Results

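The genes described here encode the proteins of the cytosolic ribosome of Saccharomyces cerevisiae, and many of them exist as a pair of near-identical copies named A and B. They were found by gene symbol in the array's annotation (RPL or RPS with a number and an optional copy letter, and the stalk proteins RPP0, RPP1A, RPP1B, RPP2A and RPP2B), with the probeset of the highest mean kept for each gene. This gave 127 of the 5449 S. cerevisiae genes tested, 52 of the small and 75 of the large ribosomal subunit. The name pattern matches 137 genes in the R64 annotation, and the other 10 were not analysed here. Of the 127 genes, 100 formed 50 pairs with both copies measured, 9 were named for only 1 copy of a pair, and 18 are single-copy genes. For each of the 9 the kept probeset has probes that may also match further sequences, such as the other copy.

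The cells, haploid a-type yeast of the laboratory strain BY4741, were grown exponentially in YPD, a rich glucose medium, with shaking. In the treated group, 2 cultures received 50 μM of the histone deacetylase inhibitor CG-1521 for 1 h. In the control group 2 cultures received vehicle for the same time. The submitters describe the replicates as independent and biological, and each culture gave 1 Affymetrix array. Total RNA was labelled with biotin, and the values are log2 summaries per probeset.

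In outline, a ribosome is built from a small subunit, which reads the mRNA, and a large subunit, which joins amino acids and carries a flexible stalk that engages the translation factors. In growing yeast the ribosomal protein genes are among the most strongly transcribed genes. Rap1 binds most of their promoters and Fhl1 holds the activator Ifh1 there in nutrient-rich medium, while Crf1 competes with Ifh1 when TOR signalling is low. The acetyltransferase Esa1 and the deacetylase Rpd3 are both known at these promoters. Of a duplicated pair, the copies encode the same or almost the same protein but have their own promoters, introns and mRNA ends.

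As to the labels, the 6 a-cell genes followed (MFA1, MFA2, STE2, BAR1, STE6 and AGA2) had 4-array means from 11.42 to 11.96. The 4 alpha-cell genes followed were above the array background of 2.42 to 2.45 on every array too, with MF(ALPHA)2 and SAG1 between 7.62 and 9.59 and STE3 and MF(ALPHA)1 between 2.73 and 5.17. Among the markers that are defective in BY4741, URA3 and MET17 were at or below 1.99 on every array and LEU2 lay between 2.08 and 3.09, while HIS3 lay between 10.21 and 10.91. In RNA from whole cultures, fewer cells with a transcript and less of it per cell cannot be told apart, and the normalization would hide a change shared by all transcripts.

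Most ribosomal protein genes were lower with CG-1521, and the median shift was small. The median log2 fold change (CG-1521 minus control) was -0.28 over the 127 genes, against -0.04 over all genes tested. Both CG-1521 values lay below both control values for 116 of the 127 genes, or 91.3%, where 40.9% of all genes tested did so. They lay above both control values for 3 genes, RPL15B, RPL22B and RPL41A, where 31.4% of all genes did so, and the groups overlapped for 8.

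Few of these shifts passed the test for single genes. The threshold for a call was an adjusted p below 0.05 in a limma fit over all 5449 genes. By that rule 16 ribosomal protein genes (12.6%) fell, where 16.8% of all genes fell, and 1 (0.787%) rose, where 12.9% of all genes rose. No test was made of the difference between these shares. At an unadjusted p under 0.05, 48 of the 127 were lower, where 25.4% of all genes were. When limma's variance prior was allowed to follow the signal intensity, 64 of the 127 fell, where 20.3% of all genes fell, and 2 rose, where 16.0% of all genes rose. When the replicate number was added to the fit 2 fell, where 8.26% of all genes fell. When all probesets of the table were fitted together 1 fell, where 8.15% of all genes fell.

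The 2 treated cultures did not shift equally. The median of the genes' values minus their control mean was -0.35 on CG-1521 replicate 1 and -0.18 on replicate 2, and replicate 1 was the lower for 115 of the 127 genes. Over all genes tested the same medians were -0.03 and -0.06. The median SD between the CG-1521 arrays was 0.11 and that between the control arrays was 0.04. Without CG-1521 replicate 2 the test called 50 ribosomal protein genes lower and 20.8% of all genes, and without CG-1521 replicate 1 it called 8 and 14.1% of all genes. It called 0 without either control array, where few genes of any kind were called lower (0.330% of all genes without control replicate 1 and 0.294% without control replicate 2). In each of these fits the group left with 1 array is assumed to vary like the other.

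**Figure D1:**
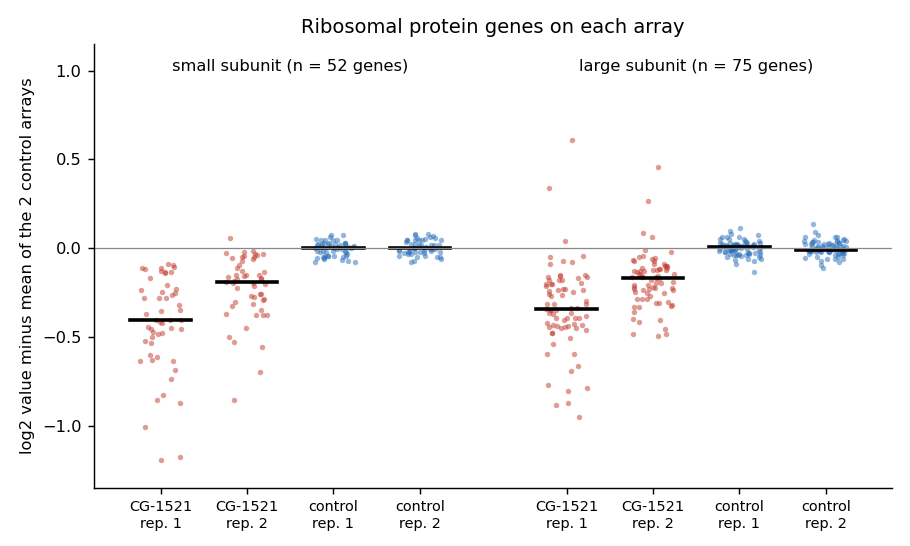
Each point is a ribosomal protein gene, plotted as its log2 value on an array minus the mean of its 2 control values, with the CG-1521 arrays (red) left of the control arrays (blue) and a black bar at the median. The medians on CG-1521 replicate 1 are -0.41 for the small and -0.34 for the large subunit, and those on replicate 2 are -0.19 and -0.17.

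Small and large subunit genes shifted by similar amounts. The 52 small-subunit genes had a median log2 fold change of -0.30, with a range from -1.02 to -0.06, and 9 of them (17.3%) fell and 0 rose. The 75 large-subunit genes had a median of -0.27, with a range from -0.72 to 0.53, and 7 (9.33%) fell and 1 rose. By comparison, 16.8% of all genes tested fell and 12.9% rose. No test was made of the difference between the subunits, or between either subunit and all genes. Both medians stayed below 0 in each of the 14 other settings in which they were computed. Settings that change only the variance estimate or the other genes in the fit leave these medians as they are, so they do not test the sign.

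RPS28B, which encodes a small-subunit protein, fell most. Its log2 values were 7.77 and 8.11 with CG-1521 against 8.93 and 8.996 in control. The treated arrays were lower by more than either group's spread, and the means were 7.94 ± 0.24 and 8.96 ± 0.05 (SD, n = 2 each). This is 2.03-fold lower with CG-1521 (log2 fold change -1.02, SE 0.15, limma adjusted p = 0.0145). Leaving out either control array ended this call, and in the other 12 settings in which the gene was followed it remained called.

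RPS0B, for a protein that the small subunit needs to mature its rRNA, followed. It had 9.67 and 10.15 with CG-1521 against 10.82 and 10.87 in control, without overlap, and fell by 0.94 on the log2 scale (SE 0.18, limma adjusted p = 0.0259). RPS26B, for a protein that lines the exit of the mRNA channel, had 11.14 and 11.62 with CG-1521 against 12.17 and 12.12 in control. It fell by 0.77 (SE 0.18, limma adjusted p = 0.0392). RPS17A had 10.40 and 10.78 with CG-1521 against 11.25 and 11.29 in control, and RPS23B, for a protein of the decoding centre, had 11.67 and 11.74 against 12.22 and 12.37. In RPS17A the treated arrays lay apart from each other, in RPS23B they lay close together, and in both genes the groups did not overlap. RPS8B had 11.83 and 11.99 with CG-1521 against 12.36 and 12.52 in control and fell by 0.53 on the log2 scale. The other small-subunit genes that fell were RPS7B, RPS12 and RPS16B, by 0.51, 0.43 and 0.41.

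Of the large subunit, RPL6B fell most, with 11.03 and 11.49 with CG-1521 against 11.95 and 12.02 in control. Its log2 fold change was -0.72 (SE 0.18, limma adjusted p = 0.0423). RPL12A, for a protein at the base of the stalk, had 10.94 and 11.33 with CG-1521 against 11.80 and 11.84 in control, a log2 fold change of -0.68. RPL8B had 11.57 and 11.86 with CG-1521 against 12.36 and 12.32 in control, a log2 fold change of -0.63. In all 3 genes both treated values lay below both control values, and CG-1521 replicate 1 was the lower of the treated pair. RPL9A, RPL23A and RPL8A fell too, by 0.53, 0.50 and 0.45. Both copies of RPL8 fell, and RPL8 was the only pair of the 50 with both copies called.

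RPL15B, which encodes a protein of the large subunit, was the only ribosomal protein gene that rose. It had 10.69 and 10.54 with CG-1521 against 10.04 and 10.12 in control. The groups were well apart, and the gene was 1.45-fold higher with CG-1521 (log2 fold change 0.53, SE 0.11, limma adjusted p = 0.0292). Its call ended in the fit of all probesets (adjusted p = 0.067), with the replicate number in the fit, and without either control array or CG-1521 replicate 1.

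**Figure D2:**
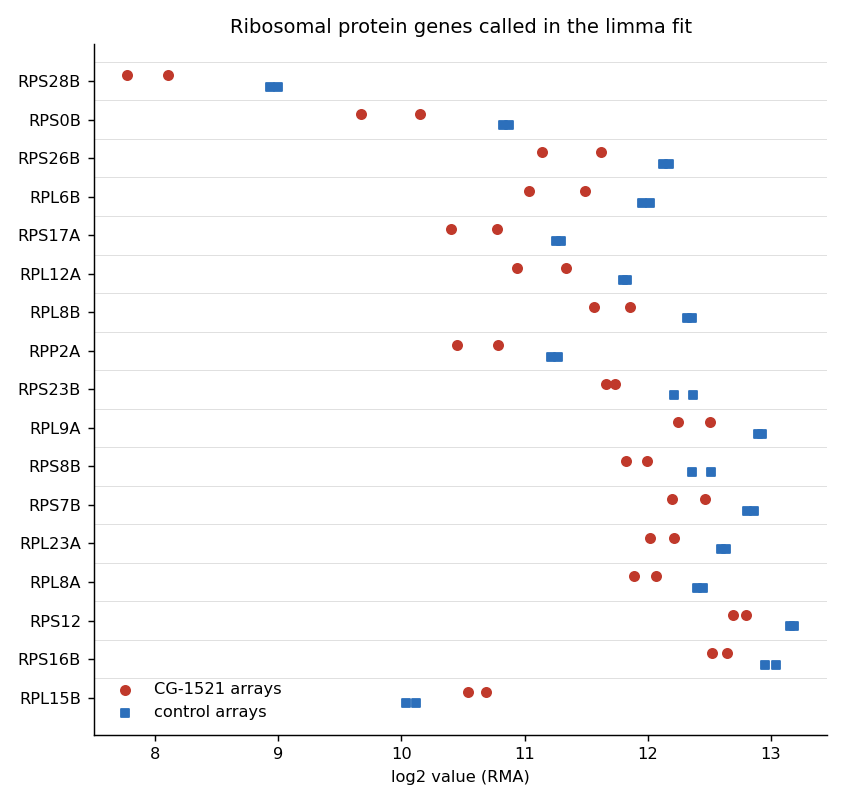
Log2 values of the 17 called ribosomal protein genes on each array, with the CG-1521 arrays (red circles) drawn above the control arrays (blue squares) in each row. The groups are apart in every row, and RPL15B is the only gene with the treated arrays to the right.

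Of the stalk proteins, RPP2A fell, and the other 4 did not pass. RPP2A, which encodes an acidic protein of the stalk, had 10.45 and 10.78 with CG-1521 against 11.27 and 11.21 in control, the log2 fold change being -0.62 (SE 0.14, limma adjusted p = 0.0366). RPP1A, another acidic stalk protein, had 11.54 and 11.61 with CG-1521 against 11.93 and 11.94 in control and just missed the threshold (-0.36, limma adjusted p = 0.0503). Both of these genes had groups that lay apart. RPP0, the single-copy protein that anchors the stalk, had 12.33 and 12.51 with CG-1521 against 12.78 and 12.66 in control (-0.30, limma adjusted p = 0.12). RPP2B had 12.73 and 12.74 with CG-1521 against 13.02 and 13.04 in control (-0.29, limma adjusted p = 0.078). RPP1B had 12.52 and 12.84 with CG-1521 against 13.01 and 12.81 in control (-0.23, limma adjusted p = 0.299). The groups overlapped in RPP1B alone of the 5 stalk genes. In the other 4 both CG-1521 values lay below both control values, as in 91.3% of the 127 ribosomal protein genes and 40.9% of all genes tested.

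The 18 single-copy genes had a median log2 fold change of -0.16, and 1 of them, RPS12, fell. RPS12 had 12.70 and 12.80 with CG-1521 against 13.16 and 13.19 in control (-0.43, SE 0.10, limma adjusted p = 0.0382). All 18 had both CG-1521 values below both control values, where 91.3% of the 127 ribosomal protein genes and 40.9% of all genes tested did so. At the ends of their range stood RPL38 and RPS31, neither of which passed. RPL38 had 9.75 and 10.10 with CG-1521 against 10.45 and 10.43 in control (-0.51, SE 0.15, limma adjusted p = 0.062), and RPS31 had a log2 fold change of -0.06 (SE 0.10).

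RPS31 is also a ubiquitin fusion, as are RPL40A and RPL40B: the protein is made with ubiquitin at its front, which is then cut off. None of these 3 passed. RPL40B had 11.36 and 12.03 with CG-1521 against 12.30 and 12.15 in control, so that the treated arrays lay far apart and the log2 fold change of -0.53 had an SE of 0.24. RPL40A had 13.74 and 13.86 with CG-1521 against 14.00 and 13.93 in control, a log2 fold change of -0.17. RPS31 stood at 13.57 and 13.62 with CG-1521 against 13.67 and 13.64 in control, and its sign turned when the values were quantile-normalized again over the S. cerevisiae genes alone.

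Some ribosomal proteins are known to hold down their own mRNA. Rps28b triggers decay of the RPS28B mRNA through Edc3, and Rpl30, Rps14, Rps9 and Rpl22 act on the splicing of RPL30, RPS14B, RPS9A and RPL22B. Of the 9 genes of these families, RPS28B fell and the other 8 did not pass. RPL30 had 13.32 and 13.45 with CG-1521 against 13.52 and 13.49 in control, a log2 fold change of -0.12. RPS14A had 12.45 and 12.71 with CG-1521 against 12.81 and 12.72 in control (-0.19), and RPS14B had 11.60 and 12.05 against 12.23 and 12.18 (-0.38). In all 3 of these CG-1521 replicate 1 was the lowest array. RPS9A had 11.06 and 11.31 with CG-1521 against 11.44 and 11.48 in control (-0.28), and RPS9B had 12.93 and 13.12 against 13.44 and 13.41 (-0.40, limma adjusted p = 0.0583). Both CG-1521 values lay above both control values for RPL22B and below them for the other 8. Of all genes tested, 31.4% lay above and 40.9% below in this way.

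Copies of a pair were compared through their difference on each array, A minus B, which was fitted as a row of its own together with the rows of all genes. This asks whether the copies responded differently, not which is more abundant, since probesets of different genes differ in how well they bind. Of 50 pairs 7 (14.0% of the pairs) passed at an adjusted p under 0.05. In 6 of these each copy had an own probeset, and the 36 pairs of that kind had a median absolute difference in log2 fold change of 0.18. Of the 36, 11 differed by less than 0.1, 15 by 0.1 to 0.3 and 10 by 0.3 or more. B had the lower log2 fold change in 19 and A in 17.

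In RPS28, RPS0 and RPS26 the B copy fell, the A copy did not pass alone, and the difference between the copies passed. The B copy also had the lower 4-array mean in each. For B against A the means were 8.45 and 12.51 in RPS28, 10.38 and 13.10 in RPS0, and 11.76 and 13.36 in RPS26. In the called pairs RPL15, RPL22 and RPL9 the copy with the lower log2 fold change had the higher mean. The part of signal level in the differences between copies was not tested. RPS28A had 12.26 and 12.41 with CG-1521 against 12.73 and 12.63 in control, a log2 fold change of -0.34 beside -1.02 for RPS28B. The difference of 0.68 (SE 0.13, limma adjusted p = 0.0229) had a 95% interval from 0.35 to 1.01. RPS0A had 12.87 and 13.03 with CG-1521 against 13.26 and 13.23 in control, and its copies differed by 0.64 (SE 0.14, limma adjusted p = 0.0336). RPS26A had 13.29 and 13.37 with CG-1521 against 13.47 and 13.32 in control, so that its groups overlapped while those of RPS26B were apart. The RPS26 copies differed by 0.71 (SE 0.16, limma adjusted p = 0.0366). RPS26A's sign turned without control replicate 1 and when the values were quantile-normalized again over the S. cerevisiae genes alone.

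In RPL15 and RPL22 the copies lay on opposite sides of 0. RPL15A had 11.71 and 11.95 with CG-1521 against 12.18 and 12.02 in control, a log2 fold change of -0.27 that did not pass, beside the rise of 0.53 in RPL15B. The difference, A minus B, was -0.80 (SE 0.18, limma adjusted p = 0.0336). RPL22A had 12.01 and 12.22 with CG-1521 against 12.42 and 12.49 in control, and RPL22B had 11.99 and 11.91 against 11.56 and 11.74. Neither copy of RPL22 passed alone (log2 fold changes of -0.34 and 0.30, limma adjusted p = 0.095 and 0.111), while their difference of -0.64 did (SE 0.14, limma adjusted p = 0.0316, 95% interval from -1.004 to -0.28).

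In RPL9 the A copy fell and the B copy did not pass. RPL9A, for a protein of the large subunit, had 12.25 and 12.51 with CG-1521 against 12.93 and 12.90 in control. RPL9B had 10.70 and 11.05 with CG-1521 against 11.08 and 10.85 in control, with the groups overlapping. The copies differed by -0.45 (SE 0.12, limma adjusted p = 0.048). RPL9B's log2 fold change of -0.09 turned positive without control replicate 1 and without CG-1521 replicate 1.

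The next pairs did not pass. RPL12A and RPL12B differed by -0.54 (limma adjusted p = 0.0537, 95% interval from -0.92 to -0.15), with RPL12B at 13.26 and 13.32 with CG-1521 against 13.45 and 13.43 in control. RPL6A and RPL6B differed by 0.43 (limma adjusted p = 0.0927, 95% interval from 0.04 to 0.83), with RPL6A at 12.33 and 12.45 with CG-1521 against 12.70 and 12.65 in control. At the other end, RPL34, RPL33, RPL24 and RPL17 had differences under 0.01, where the 95% interval still ran from -0.25 to 0.25 for RPL33 and from -0.33 to 0.33 for RPL24. The pair calls rest on the arrays used: 0 pairs passed without either control array, 4 without CG-1521 replicate 1 and 10 without CG-1521 replicate 2. In the fit of all probesets 0 pairs passed, and with the replicate number in the fit 1 did, RPS28. With the intensity trend 4 passed, and RPS28, RPS0, RPS23 and RPL9 lost their call. For a pair that trend followed the mean A minus B difference, not the signal of the copies. The count of 4 is therefore no check at the copies' own signal.

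**Figure D3:**
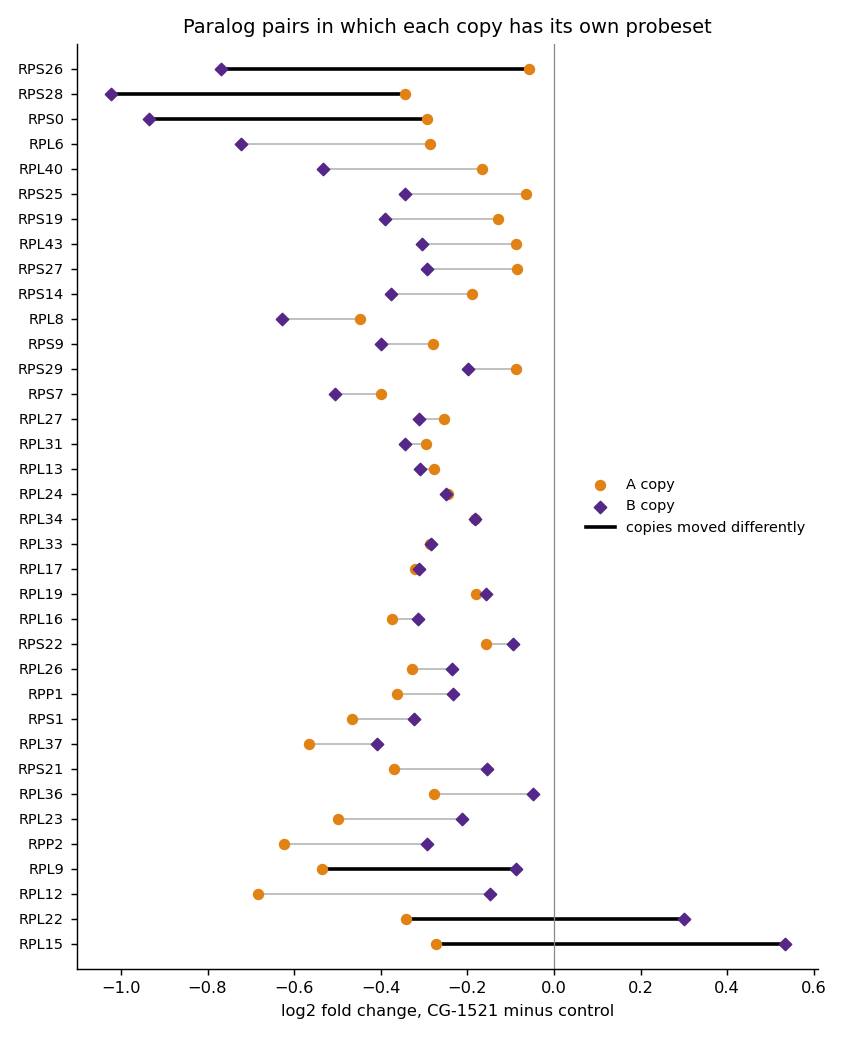
Log2 fold change (CG-1521 minus control) of the A copy (circles) and the B copy (diamonds) in the 36 pairs in which each copy has its own probeset, ordered by the difference between copies. Black lines mark the 6 pairs whose copies differed at an adjusted p under 0.05, and only RPL15B and RPL22B lie to the right of 0.

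The remaining called pair, RPS23, turned on the probeset. Some probesets (names ending in _s_at or _x_at) contain probes that also match further sequences, such as the other copy, and the kept probeset of RPS23A was of this kind. It had 13.11 and 13.23 with CG-1521 against 13.31 and 13.25 in control, a log2 fold change of -0.11 beside -0.59 for RPS23B (difference 0.48, limma adjusted p = 0.0424). RPS23A also has an own probeset, with 10.83 and 11.34 with CG-1521 against 11.64 and 11.71 in control. With it the log2 fold change of RPS23A was -0.59, and the difference between the copies was 0.0058 (limma adjusted p = 0.983).

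In all, 24 of the 127 genes were represented by a shared probeset, and 0 of these 24 were called. Their median log2 fold change was -0.20, and that of the 103 genes with an own probeset was -0.29. For 20 genes the array holds both kinds of probeset, which allows the same gene to be read in both ways.

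Own probesets showed the larger shift in 16 of these 20 genes. Their median log2 fold change was -0.46, against -0.20 for the shared probesets of the same genes. In a fit of all 5498 probesets of S. cerevisiae genes, where 16.8% fell, 7 of the 20 own and 0 of the 20 shared probesets fell. RPL18B's own probeset read 8.19 and 8.49 with CG-1521 against 9.39 and 9.60 in control, the log2 fold change being -1.15 (SE 0.15, limma adjusted p = 0.0129). That is a greater fall than any kept probeset of the family showed. Its shared probeset read 13.34 and 13.47 with CG-1521 against 13.70 and 13.68 in control, a log2 fold change of -0.29 (limma adjusted p = 0.0989).

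The difference between own and shared probeset, fitted like the pairs, passed for 2 of the 20 genes. It was -0.86 for RPL18B (SE 0.13, limma adjusted p = 0.0167) and -0.37 for RPS11B (SE 0.10, limma adjusted p = 0.048). In 15 of the 20 genes the own probeset also had the lower 4-array mean, and the part of signal level in these differences was not tested. With the own probeset taken wherever a gene has one, a choice made after the values were seen, 22 of the 127 genes fell, where 16.9% of all genes fell, and 1 rose, where 12.9% of all genes rose.

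**Figure D4:**
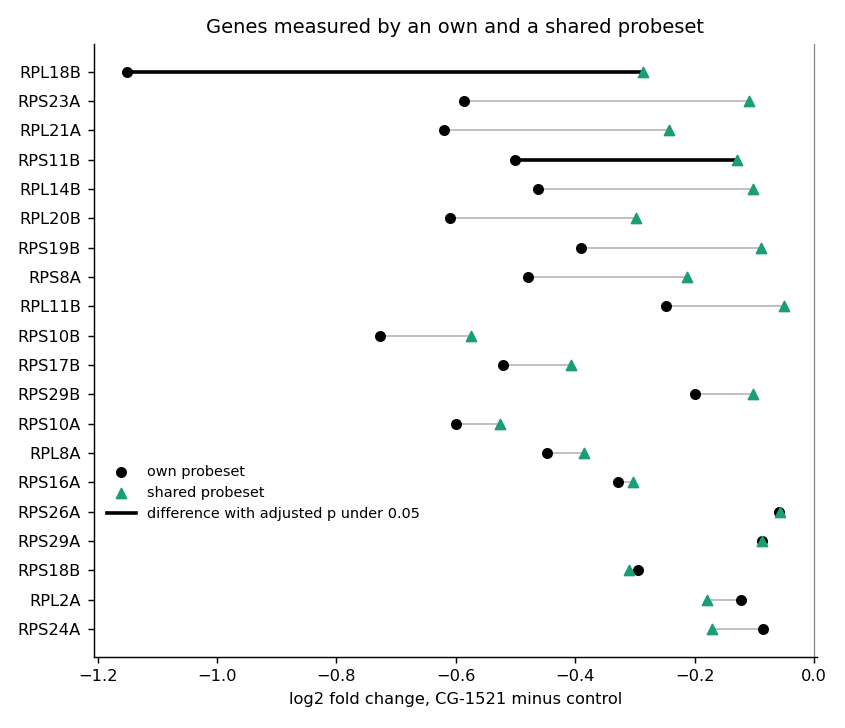
Log2 fold change (CG-1521 minus control) of the own (black circles) and the shared probeset (green triangles) of the 20 ribosomal protein genes that have both, with black lines where the difference had an adjusted p under 0.05. The own probeset lies further left in 16 genes, most of all in RPL18B.

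Within the family, calls were found at lower signal. The 34 genes with a 4-array mean of 13 or more had a median log2 fold change of -0.16 and 0 of them were called. Both CG-1521 values nevertheless lay below both control values in 32 of them (94.1%), where 40.9% of all genes tested did so. The 65 genes with means from 12 to 13 had a median of -0.30 and 8 (12.3%) fell. The 28 genes with means under 12 had a median of -0.49, of which 8 (28.6%) fell and RPL15B rose. Shares called over all genes tested were 16.8% lower and 12.9% higher, and they were not computed at matching signal. The highest value on any array was 14.62 to 14.67, and the ribosomal protein genes reached 14.01. The part of the upper end of the measured scale in the smaller shifts of bright probesets was not tested.

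**Figure D5:**
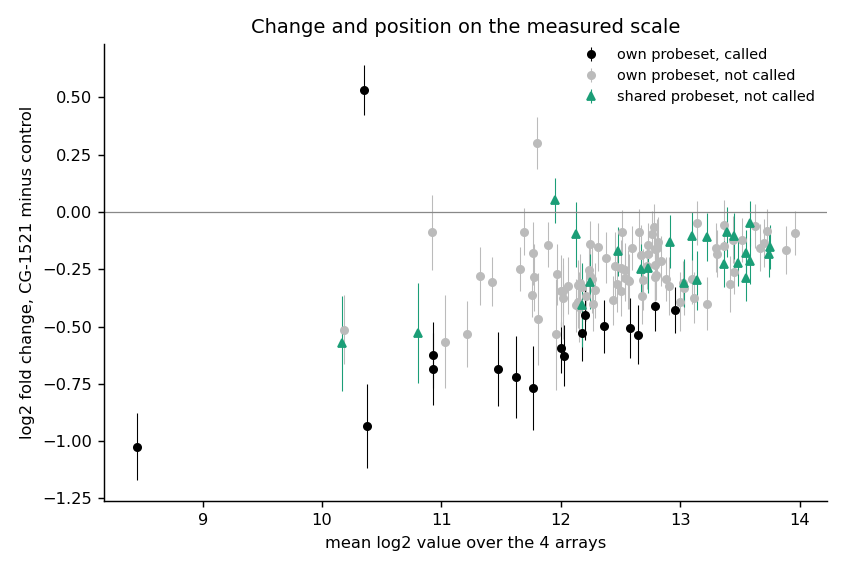
Log2 fold change (CG-1521 minus control, with its SE) of the 127 ribosomal protein genes against the mean log2 value over the 4 arrays. Called genes (black) have means up to 12.96, and to the right of 13 the log2 fold changes lie between -0.40 and -0.05.

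Ribosomal protein genes that are direct neighbours along a chromosome gave 9 neighbouring pairs, 5 of them divergent, that is, transcribed away from each other. In 7 of the 9 neither gene was called. In RPS16B with RPL13A and in RPS15 with RPP2A, both divergent, 1 gene of each pair was called. RPS16B and RPL13A had log2 fold changes of -0.41 and -0.28, and RPS15 and RPP2A of -0.39 and -0.62, and the second of these was the greatest difference among neighbours. The median absolute difference between neighbours was 0.12.

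Among 23 genes of the proteins that regulate this family or act at its promoters, 5 (21.7%) fell and 1 (4.35%) rose. Of all genes tested, 16.8% fell and 12.9% rose, and no test was made of the difference between these shares. The median log2 fold change of the 23 genes was -0.06, against -0.04 over all genes tested. IFH1, the co-activator, had 7.51 and 7.51 with CG-1521 against 7.92 and 8.06 in control, and fell by 0.48 (SE 0.11, limma adjusted p = 0.0329). CRF1, its competitor, had 6.83 and 6.43 with CG-1521 against 6.07 and 5.89 in control, and rose by 0.65 (SE 0.17, limma adjusted p = 0.0477). In both genes the groups were apart. SCH9, the kinase that relays TOR signals to ribosome synthesis, fell by 0.52, and TOD6, a repressor of ribosome biogenesis genes, by 0.78. TBF1 and CBF1, DNA-binding factors, fell by 0.58 and 0.70. RAP1 (-0.25), FHL1 (-0.43, limma adjusted p = 0.0889), SFP1 (-0.21) and HMO1 (0.11) did not pass. RPD3 (0.01) and ESA1 (-0.15) did not pass either.

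Dedicated chaperones escort single ribosomal proteins from their synthesis to the assembling ribosome. Of 7 such genes 5 (71.4%) fell and 0 rose, where 16.8% of all genes fell and 12.9% rose. Their median log2 fold change was -0.75, against -0.04 over all genes tested. SYO1, which carries Rpl5 and Rpl11, had 9.86 and 10.21 with CG-1521 against 11.31 and 11.21 in control (-1.23, SE 0.15, limma adjusted p = 0.0114). TSR2, the escort of Rps26, had 9.09 and 9.16 with CG-1521 against 10.25 and 10.26 in control (-1.13, SE 0.10, limma adjusted p = 0.00768). The groups were far apart in both genes. BCP1 for Rpl23, ACL4 for Rpl4 and RRB1 for Rpl3 fell by 0.90, 0.75 and 0.73, while SQT1 for Rpl10 (-0.27) and YAR1 for Rps3 (-0.54, limma adjusted p = 0.0573) did not pass. Among the single-copy genes of the escorted proteins, RPL5 had a log2 fold change of -0.14, RPL3 of -0.26, RPL10 of -0.16 and RPS3 of -0.09, and none of these 4 passed. Among the duplicated ones RPS26B (-0.77) and RPL23A (-0.50) fell, while RPS26A, RPL23B and both copies of RPL4 and RPL11 did not pass.

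Of 12 genes for proteins that bind the finished ribosome, 3 fell and 2 rose, where 16.8% of all genes fell and 12.9% rose. Whether these 12 genes differ from all genes in this was not tested. ASC1, a scaffold on the head of the small subunit, fell by 0.39 (SE 0.10, limma adjusted p = 0.0422), within the range of the ribosomal proteins themselves. ZUO1 and SSB2, chaperones of the emerging chain, fell by 0.44 and 0.47. The 2 that rose were LSO1, which had 11.28 and 10.97 with CG-1521 against 5.64 and 6.18 in control (5.21, SE 0.23, limma adjusted p = 0.00676), and TMA10, which had 11.25 and 10.54 against 7.22 and 7.71 (3.43, SE 0.30, limma adjusted p = 0.00768). In both genes the groups were far apart. For comparison, of 54 mitochondrial ribosomal protein genes found by name, 10 (18.5%) fell and 2 (3.70%) rose, with a median log2 fold change of -0.16. Both CG-1521 values lay below both control values in 28 of the 54 (51.9%), where 40.9% of all genes tested did so.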

How the data were processed

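The deposited values are log2 values per probeset, 1 column per array, made by the authors with Affymetrix Expression Console and RMA (background correction, quantile normalization and summary of probes), per the submitters' processing notes. Versions and settings are not given in the sources used here. Of 10928 probesets, 5498 could be assigned by gene identifier to the R64 annotation of S. cerevisiae, which left 5449 genes. Background was the 95th percentile of 1746 Schizosaccharomyces pombe probesets per array. No genome build is named for the arrays, so no coordinates are given.

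The tests used limma 3.58.1 under R 4.3.3 (lmFit and eBayes, default settings) on 2 CG-1521 and 2 control arrays. P-values are two-sided and Benjamini-Hochberg adjusted over all genes, or over all genes and pair rows together. The fit had 2 residual degrees of freedom, 2.69 more borrowed from other genes and a median SE of 0.12, so the number of arrays limits the precision. The procedure was tested on simulated data. Members, gene lists and tests were chosen with earlier results of these data known. Genes given per array are the called gene that rose, the 12 greatest called changes, pairs called or among the 8 with the greatest difference, stalk proteins, ubiquitin fusions, self-regulating genes and extreme single-copy genes. RPL18B, RPS11B and genes named with neighbours or clients of chaperones were added after their values were seen. Same-numbered arrays did not deviate together (r = -0.263 across genes), so no pairing was used.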

Additional observations from a re-analysis of the deposited data

How the results depend on the processing

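Results were computed again in 15 other settings, of which the own probeset where a gene has one and the crossed replicate numbers were chosen after seeing the data. Both subunit medians kept their sign in each setting where they were computed. They could not change with all probesets, the intensity trend, robust hyperparameters, either replicate block or the background filter. Leaving out 1 array in turn moved the small-subunit median between -0.41 and -0.19. It moved the large-subunit median between -0.34 and -0.17. Counts of calls moved more: leaving out 1 array in turn gave 0 to 50 genes lower, 0 to 1 higher and 0 to 10 pairs with unequal copies, while 16 to 1133 of all 5449 genes were called lower. Fitting all probesets together gave 1 lower (444 of all genes), 0 higher and 0 pairs, and the intensity trend gave 64 (1105 of all genes), 2 and 4. For pairs that trend followed the mean difference between the copies and not their signal, so its 4 pairs are no check at that signal. The replicate block gave 2 lower (RPS28B and RPS0B, with 450 of all genes), 0 higher and 1 pair, and the same-numbered arrays correlated at -0.263 in their deviations, which gives no support for pairing. With the replicate numbers crossed instead, 17 were lower (978 of all genes), 1 was higher and 7 pairs passed. Robust hyperparameters, either scaling, the probeset with the lowest mean, the own probeset, the background filter and the omission of shared probesets kept each count within 1.5 times. Omitting shared probesets could not change the gene counts, as 0 of the 24 such genes were called. The background filter left 5445 of the 5449 genes and every ribosomal protein gene, so it had little room to change a count. The values that turned sign had not been called: leaving out 1 array in turn moved RPL9B between -0.259 and 0.0836 and RPS26A between -0.134 and 0.0177, and quantile normalization over S. cerevisiae genes gave 0.0242 for RPS26A and 0.00276 for RPS31. The cause of the other changes was not tested.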

Other observations

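The array also carries 14 Schizosaccharomyces pombe probesets named for ribosomal protein genes, a species that is not in the samples. Of these, 12 were at or below the array background on every array, 1 exceeded it on some arrays and 1 exceeded it on every array. That probeset, named rpl13, read 4.49 and 4.80 with CG-1521 against 4.87 and 4.67 in control, with the groups overlapping.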
